A study of Gallus gallus with 6 samples.

Results

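Zinc fingers are small protein folds held together by a zinc ion, and tandem arrays of the C2H2 type form one of the most common DNA-binding domains of vertebrate transcription factors. Families of such genes, among them the KLF and SP factors, the POZ domain (ZBTB) proteins, the Ikaros (IKZF) factors and the SALL and teashirt (TSHZ) proteins, act in many tissues as repressors or activators that hold cells in a progenitor state or direct them into a lineage. Some of these proteins also read DNA methylation, since ZBTB38 is known in mammals as a protein that binds methylated CG sites. The genes described here are those whose symbol carries one of these family names and for which at least 1 differentially methylated region (DMR) was listed between lens epithelial and lens fiber cells of the chick. A DMR is a stretch of neighbouring CG sites at which the share of methylated DNA molecules, the mCG level, differed between the cell types. The rule used the name alone and not the size or the direction of a change. It gave 64 genes of 3888 genes with a DMR, and 2942 of the latter had a symbol at all. These 64 genes held 169 of 7621 DMRs, spread over 23 of 34 chromosomes.

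DNA came from White leghorn embryos at embryonic day 13, when the lens is made of a front sheet of epithelial cells and the fiber cells that differentiate from them. Each of 3 epithelial and 3 fiber samples was pooled from 25 microdissected lenses, the former from central and equatorial epithelium and the latter from peripheral and central fibers. The authors measured methylation by whole genome bisulfite sequencing. For every DMR the values analysed were an epithelial and a fiber level, each the authors' mean over 3 replicates, so that the spread between replicates and the read depth behind a level are unknown and no test over samples could be made. The authors' DMR calls are the test that each region passed. The change divided by the mean test statistic per CG site approximates its standard error for one site, with a median of 3.43 and a range of 1.65 to 5.39 percentage points over the 169 regions. Most shares below carry 95% Wilson intervals, which cover the counting of regions or genes only, and shares over all DMRs or genes are given beside them as background. Intervals over regions treat the regions as independent, although 13 genes held 92 of the 169. They may therefore be too narrow. In pooled tissue a middle level cannot tell partial methylation in every cell from full methylation in some cells. Expression was not analysed here, and the identity of the cell types cannot be checked from these levels.

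The name rule is wider than the class of transcription factors. Most proteins with a ZC3H symbol carry CCCH fingers and bind RNA, ZC3HC1 (NIPA) has a different finger and is a protein of the nuclear pore, ZMIZ proteins are coactivators with a MIZ-type finger, ZSWIM proteins carry the SWIM type of finger, and ZFPM1 (FOG1) is a cofactor of GATA factors. Of the genes with a ZNF symbol, ZNF598 is known in mammals as a ubiquitin ligase of ribosome quality control. The DNA-binding families KLF, SP, EGR, ZBTB, BCL6, BCL11, PRDM, IKZF, SALL, TSHZ and ZFHX contributed 31 genes, the ZNF symbols 23, ZC3H 6, and the cofactors and ZSWIM 2 each. No DMR was listed for a gene of the ZIC, INSM, HIC or ZFP names or for CTCF.

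Methylation of these genes was mostly higher in fiber cells. Of 169 DMRs, 142 were higher (gains) and 27 lower (losses), so that gains made up 84.0% (95% Wilson interval 77.8% to 88.8%). Over all listed DMRs, gains made up 86.6% and losses 13.4%, a share within that interval. When the changes were averaged over the DMRs of a gene, 50 of 64 genes were higher in fiber cells (78.1%, Wilson interval 66.6% to 86.5%) and 14 lower. The background was 84.8% higher and 15.2% lower over all genes, and 85.0% higher over protein-coding genes, the class to which all 64 belong. Neither share stands away from the background by more than its counting interval.

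The size of the change was modest. The median change was 17.5 percentage points over the 169 regions against 19.9 over all DMRs, and gains alone had a median of 19.3 against 21.4. Losses were larger in size, with a median of -31.1 percentage points against -27.9 over all losses. A change of at least 20 percentage points was found in 86 of the 169 regions (50.9%, Wilson interval 43.4% to 58.3%), against 59.5% of all DMRs. Among these larger changes 63 of 86 were gains (73.3%, Wilson interval 63.1% to 81.5%), against 83.1% in the background. Both of these backgrounds lie just above the intervals, which do not allow for regions that share a gene. The source of these gaps was not tested. Starting levels were higher than usual, with a median epithelial level of 43.8% against 30.5% over all DMRs.

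**Figure D1:**
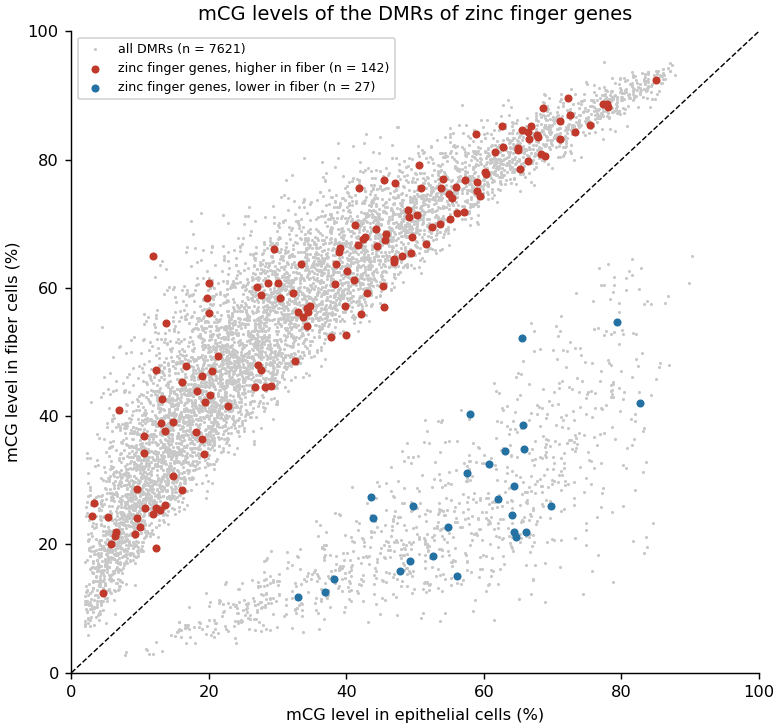
mCG level in fiber cells (vertical axis, %) against epithelial cells (horizontal axis, %) for each DMR, with all 7621 DMRs in grey, the 142 gains of zinc finger genes in red and their 27 losses in blue; each point is a pair of the authors' means over replicates. Losses start between 32.9% and 82.7% in epithelial cells, while gains start anywhere from 2.99% to 85.0%.

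The 3-finger factors of the KLF, SP and EGR families bind GC-rich and GT-rich sites near many promoters. They held 10 gains and 3 losses in 7 genes (76.9% gains, against 86.6% over all DMRs). All losses belonged to KLF genes. KLF7 (ENSGALG00000008501), a factor of neuronal differentiation, had 2 intronic losses on chromosome 7. The region from 12295781 to 12295883 went from 56.0% to 15.0%, and the one from 12297430 to 12297610 from 47.7% to 15.8%. The average change of KLF7 was -36.5 percentage points, and the approximate errors of the regions were 4.11 and 3.59 for one site. KLF10 (ENSGALG00000037913), an early target of TGF-beta signals in mammals, fell in an exon of chromosome 2 (129102926 to 129103061) from 43.5% to 27.4%. KLF8 moved the other way, with an exonic gain from 48.1% to 65.0%.

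SP1 (ENSGALG00000035487), a broadly expressed activator, had 5 gains within 8.60 kb on chromosome 33 and no loss. Their changes lay close together, between 12.6 and 19.7 percentage points, although the epithelial levels ranged from 18.9% to 68.2%. The region with the most CG sites, 72 in an intron from 7384418 to 7384960, rose from 18.9% to 36.5%. SP2 and SP9 each had an exonic gain, of 11.3 and 7.15 percentage points. The SP9 region was the densest of all 169, with 46.6 listed CG sites per 100 bp, and lay in a CpG island. The immediate early gene EGR3 (ENSGALG00000037437) rose in its promoter (chromosome 22, 1506797 to 1506987) from 9.18% to 21.6%. A second gain of EGR3, in an exon, went from 45.5% to 57.1%.

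POZ domain proteins pair a protein-interaction domain with zinc fingers and mostly act as repressors. Their 11 genes held 18 gains and 2 losses (90.0% gains, against 86.6% over all DMRs). Both losses were large. ZBTB38 (ENSGALG00000036543) had the lowest average change of the 64 genes, from a single loss on chromosome 9, from 10358025 to 10358301, that covered 5′ UTR and intron. The level went from 69.7% to 26.1%, or by -43.7 percentage points, with an approximate standard error of 3.69 for one site. The intronic loss of ZBTB7C (ENSGALG00000033408) on chromosome Z, from 1444194 to 1444308, went from 66.1% to 22.0% and was the largest loss of all 169 regions. ZBTB7C also had an intronic gain from 28.6% to 60.8%, in a region that the table also ties to 2 genes with no symbol. Its average of -5.97 percentage points is far from the change of either region.

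The other POZ domain genes had gains alone. ZBTB7A (ENSGALG00000025907), also known as LRF and for silencing fetal globin in mammals, had 5 gains within 7.50 kb on chromosome 28. The lowest started at 4.61% and ended at 12.5%, and the highest started at 75.4% and ended at 85.4%, so that a single gene body spanned most of the range of levels. ZBTB46 (ENSGALG00000006062), a marker of dendritic cells in mammals, rose in its promoter (chromosome 20, 9567948 to 9568304) from 41.0% to 61.2%, and had a second gain of 30.2 percentage points over exon and intron. ZBTB44 (ENSGALG00000001341) rose from 18.9% to 46.3% over exon and intron. ZBTB16 (PLZF) had 3 intronic gains with an average of 19.5 percentage points, and BCL6, a repressor of B cell differentiation, had an intronic gain of 19.6. The averages of ZBTB1, ZBTB39, ZBTB45 and ZBTB48 lay between 8.76 and 17.5 percentage points.

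Most PRDM proteins combine zinc fingers with a PR domain related to histone methyltransferases. PRDM16 (ENSGALG00000036728), which is known for directing brown fat differentiation in mice, had 12 DMRs over 183 kb of chromosome 21, all in introns. The 8 gains had changes of 15.1 to 31.3 percentage points, and the 4 losses had a median of -31.8. The losses went from 63.1% to 34.5%, from 38.2% to 14.6%, from 82.7% to 42.0% and from 62.1% to 27.0%, and they did not form a single run. Along the gene 3 gains came first, then 2 losses, 2 gains, 1 loss, 1 gain, 1 loss and 2 gains. The largest loss, at 1145615 to 1145752, followed a gain from 60.1% to 78.1% at 1142698 to 1142888. The average change of PRDM16 was 3.58 percentage points and turned to -6.39 when regions of under 20 percentage points were left out, to -0.619 when regions below the median area statistic were dropped, and rose to 8.74 with 1 region per 10 kb. PRDM11 had a single intronic gain of 21.1 percentage points.

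The IKZF factors are known from lymphocyte development. IKZF3 (ENSGALG00000013481), the gene of Aiolos, had 2 intronic losses and 1 intronic gain on chromosome 27. The loss from 7077361 to 7077704 went from 32.9% to 11.9%, which was the lowest fiber level of all 169 regions. The second loss, 0.569 kb further on, went from 60.7% to 32.6%, and the gain before them from 58.9% to 75.0%, with an average of -11.0 percentage points. IKZF2 (ENSGALG00000003136), the gene of Helios, rose from 32.2% to 59.2% in an intron on chromosome 7, from 3672908 to 3673331. IKZF4 had an exonic gain of 14.8 percentage points.

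Genes of the SALL, TSHZ, ZFHX and BCL11 families code for large developmental regulators. Of their 22 DMRs, 17 were gains (77.3%, against 86.6% over all DMRs). TSHZ2 (ENSGALG00000007809) had the highest average of the 64 genes, from a single intronic region on chromosome 20, from 12674287 to 12674450, where the level went from 19.8% to 58.4%. TSHZ1 had 3 intronic gains of 19.2 to 27.1 percentage points. TSHZ3 (ENSGALG00000004528) had a gain from 34.7% to 57.1% and a loss from 65.5% to 52.1%, both in introns of chromosome 11. The loss lay in a CpG island and had 48 listed CG sites, and the average of 4.49 percentage points turned to -0.219 when regions were weighted by their CG sites.

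SALL4 (ENSGALG00000041365), a factor of pluripotent cells, fell in an exon (chromosome 20, 13095935 to 13096100) from 57.6% to 31.2%. SALL1 (ENSGALG00000039238), known for its part in kidney development, had 2 regions of opposite direction on chromosome 11. Its promoter rose from 6.44% to 22.0% between 5931243 and 5931445, in a region that the table also ties to a gene with no symbol. An intron fell from 79.4% to 54.7%, the highest fiber level among the 27 losses, and the average was -4.55 percentage points. BCL11B (ENSGALG00000031862), a factor of T cell and neuron development, was likewise split on chromosome 5, with an intronic gain from 66.9% to 85.2%, an intronic loss from 64.4% to 22.0% and an average of -12.1 percentage points. Its relative BCL11A, a silencer of fetal globin in humans, had 2 intronic gains, from 27.6% to 59.0% and from 49.1% to 71.1%.

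ZFHX3 (ENSGALG00000000713), which carries both zinc fingers and homeodomains, had 9 intronic DMRs within 48.9 kb of chromosome 11. The 8 gains had changes of 12.8 to 24.0 percentage points. The region from 19530130 to 19530760 started at 2.99%, the lowest epithelial level of all 169 regions, and ended at 24.4%. The next one, from 19538089 to 19538396, went from 3.22% to 26.5%. The only loss of ZFHX3 was its last region, from 43.8% to 24.1%, and it lay between 19556781 and 19556938.

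**Figure D2:**
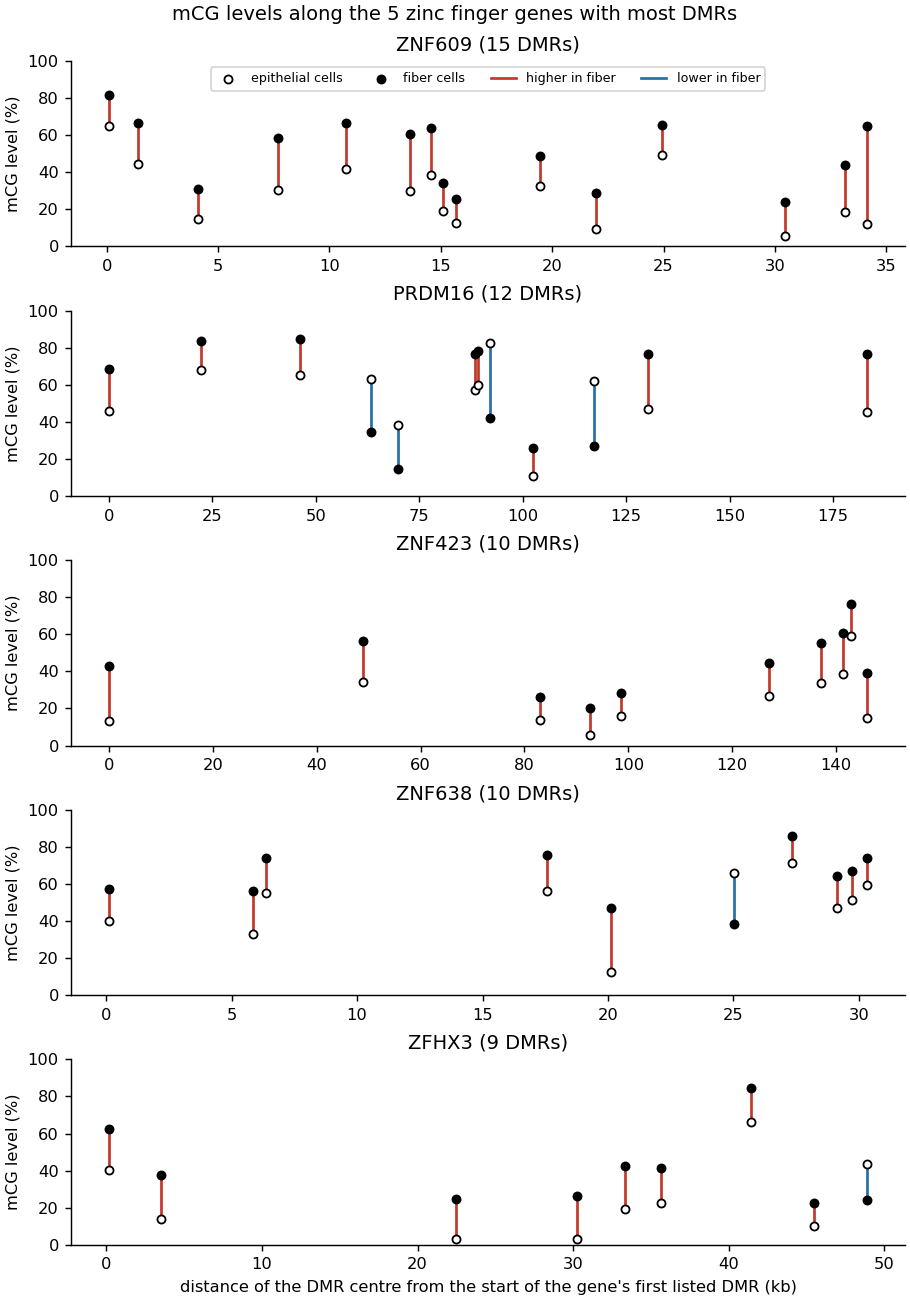
mCG level (vertical axis, %) of epithelial cells (open circles) and fiber cells (filled circles) for every DMR of the 5 zinc finger genes with most DMRs, against the distance in kb from the start of the first listed DMR of the gene. Red lines mark gains and blue lines losses: all 15 DMRs of ZNF609 and all 10 of ZNF423 are gains, PRDM16 has 8 gains with 4 losses among them, and ZNF638 and ZFHX3 have 1 loss each.

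Among the ZNF symbols 66 of 73 DMRs were gains (90.4%), near the 86.6% over all DMRs. ZNF609 (ENSGALG00000040087), which is known in mice for a part in neuronal migration and muscle precursors, had the most DMRs of the 64 genes, 15 within 34.2 kb of chromosome 10, and ranked 18 among all genes by that number. All were gains, with changes of 12.6 to 53.1 percentage points and an average of 22.7, and 12 of them overlapped a CpG island or its flank. The promoter region of ZNF609 from 1648231 to 1648343 went from 11.9% to 64.9%. This gain of 53.1 percentage points ranked 1 among all 7621 DMRs by change, yet the region has only 10 listed CG sites over 113 bp. It is also annotated to an intron of TRIP4, the overlapping neighbour, as are the second promoter region of ZNF609, with 18.3% and 43.9%, and an intronic one. Levels of the 3 shared regions cannot be assigned to either gene. The longest region of ZNF609, 1251 bp over exon and intron from 1614952 to 1616202, had 134 listed CG sites and went from 44.5% to 66.6%.

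ZNF423 (ENSGALG00000003891), a partner of EBF factors with a known part in the cerebellum, had 10 gains over 146 kb of chromosome 11 and no loss. They began between 5.76% and 59.0%, with an average change of 19.4 percentage points. A region of ZNF423 annotated to both promoter and intron, from 6803323 to 6803421, went from 16.1% to 28.5%. ZNF638 (ENSGALG00000049119), a nucleic acid-binding protein known in human cells for silencing unintegrated retroviral DNA, had 9 gains and 1 loss within 30.4 kb of chromosome 4. The largest gain of ZNF638, over exon and intron from 91202867 to 91203444, went from 12.3% to 47.2% with 60 listed CG sites. The loss followed from 91207921 to 91208223, from 65.7% to 38.6%, and gains lay on both sides of it.

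ZNF488 (ENSGALG00000005975), known for a part in oligodendrocyte differentiation in mammals, had 4 gains next to each other on chromosome 6. They measured 637 to 2033 bp and were sparse, with 1.33 listed CG sites per 100 bp in the sparsest, which ranked 18 from the lowest among all DMRs. The first, over 5′ UTR, exon and intron from 18801191 to 18803223, went from 6.85% to 40.9%. The next 3 went from 20.0% to 56.1%, from 50.6% to 79.1% and from 26.9% to 60.1%. The changes of all 4 lay between 28.5 and 36.0 percentage points, with an average of 32.9. ZNF710 (ENSGALG00000036163) showed the opposite shape, with 4 gains in CpG islands within 7.72 kb of chromosome 10. The promoter region of ZNF710, from 20455648 to 20455938, went from 37.7% to 52.3%, an intronic one from 13.0% to 39.0%, and those in exons from 34.2% to 54.0% and from 77.9% to 88.7%.

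Losses at ZNF symbols were 7 of 73 DMRs, against 13.4% of all DMRs. ZNF767 (ENSGALG00000036870) fell from 64.7% to 21.2% over exon, intron and 3′ UTR, on chromosome 2 from 573172 to 573483. ZNF644 (ENSGALG00000034253), a partner of histone H3K9 methyltransferases in human cells, fell from 64.1% to 24.6% in an intron on chromosome 8, from 15050136 to 15050249. ZNF598 (ENSGALG00000005598) fell from 54.8% to 22.7% over exon and intron on chromosome 14, from 6606793 to 6607263. ZNF618 (ENSGALG00000008886) had 2 intronic losses on chromosome 17, from 52.6% to 18.2% and from 65.9% to 34.8%, and an intronic gain from 10.5% to 36.9%. ZNF536 (ENSGALG00000035602), a repressor of neuronal differentiation genes, had 3 intronic gains on chromosome 11 and a loss of 12 listed CG sites between them, from 49.2% to 17.5%. That loss ended 0.878 kb before a gain from 16.0% to 45.3%.

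A pair of genes with a single gain stood high in the order of averages. ZNF462 (ENSGALG00000015451) rose in an exon on chromosome Z, from 55586560 to 55586798, from 16.6% to 47.9%. ZNF512B (ENSGALG00000006013) rose in an intron on chromosome 20, from 41.3% to 69.7%. ZNF362 (ENSGALG00000026558) had 2 gains in CpG islands on chromosome 21, with a promoter region from 6510934 to 6511304 at 46.9% and 64.5%. The averages of ZNF142, ZNF276, ZNF282, ZNF365, ZNF385C, ZNF469, ZNF516, ZNF521, ZNF687 and ZNF804A were all positive, from 11.6 for ZNF142 to 26.5 percentage points for ZNF521. The regions of ZNF276 and ZNF365 were also annotated to VPS9D1 and RTKN2.

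Among the genes that do not code for classic transcription factors, most regions were gains, as were 86.6% of all DMRs. The ZC3H genes held 9 gains in 11 DMRs (81.8%), ZFPM1 and ZMIZ1 together 4 in 6 (66.7%), and the ZSWIM genes 6 in 6. These counts are small. ZC3H13 (ENSGALG00000016984), a subunit of the complex that writes N6-methyladenosine in RNA, had the second highest average of the 64 genes, from an exonic region on chromosome 1 between 169292170 and 169292450, that went from 29.5% to 66.0%. ZC3H3 (ENSGALG00000043265), which acts in export of polyadenylated RNA, had 3 gains and 2 losses, all in introns of chromosome 2 over 66.0 kb. The losses of ZC3H3 went from 64.4% to 29.1% and from 36.8% to 12.6%. Its average was -0.329 percentage points and ranged over the alternatives from -11.4, with changes of at least 20 percentage points, over -4.32 with 1 region per 10 kb and 2.02 when weighted by CG sites, to 21.1 when regions below the median area statistic were dropped. ZC3H8, ZC3H10, ZC3H18 and ZC3HC1 had gains only, with averages of 13.3 to 24.6 percentage points, and the region of ZC3H10 was shared with ESYT1.

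ZFPM1 (ENSGALG00000049065) alternated between loss and gain in 4 intronic regions within 12.0 kb of chromosome 11. Its losses went from 58.0% to 40.3% and from 49.6% to 26.0%, and its gains from 66.6% to 83.2% and from 18.1% to 37.5%. The average of ZFPM1 was -1.32 percentage points and -23.6 when changes under 20 percentage points were left out, which left 1 region. ZMIZ1 (ENSGALG00000004850), a coactivator of NOTCH1 in mammals, had 2 intronic gains on chromosome 6. The region from 13133306 to 13133636 went from 13.7% to 54.5%, a change of 40.8 percentage points, and the other rose by 13.4. ZSWIM5 (ENSGALG00000010221) had 5 gains over 73.2 kb of chromosome 8. The promoter region of ZSWIM5, from 21378743 to 21379179 in a CpG island, went from 10.5% to 34.2%, and a region over exon and intron from 21310154 to 21310596 went from 20.0% to 60.8%. The other 3 went from 45.6% to 67.4%, from 53.8% to 75.5% and from 68.6% to 88.1%. ZSWIM3 had an exonic gain of 12.7 percentage points.

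**Figure D3:**
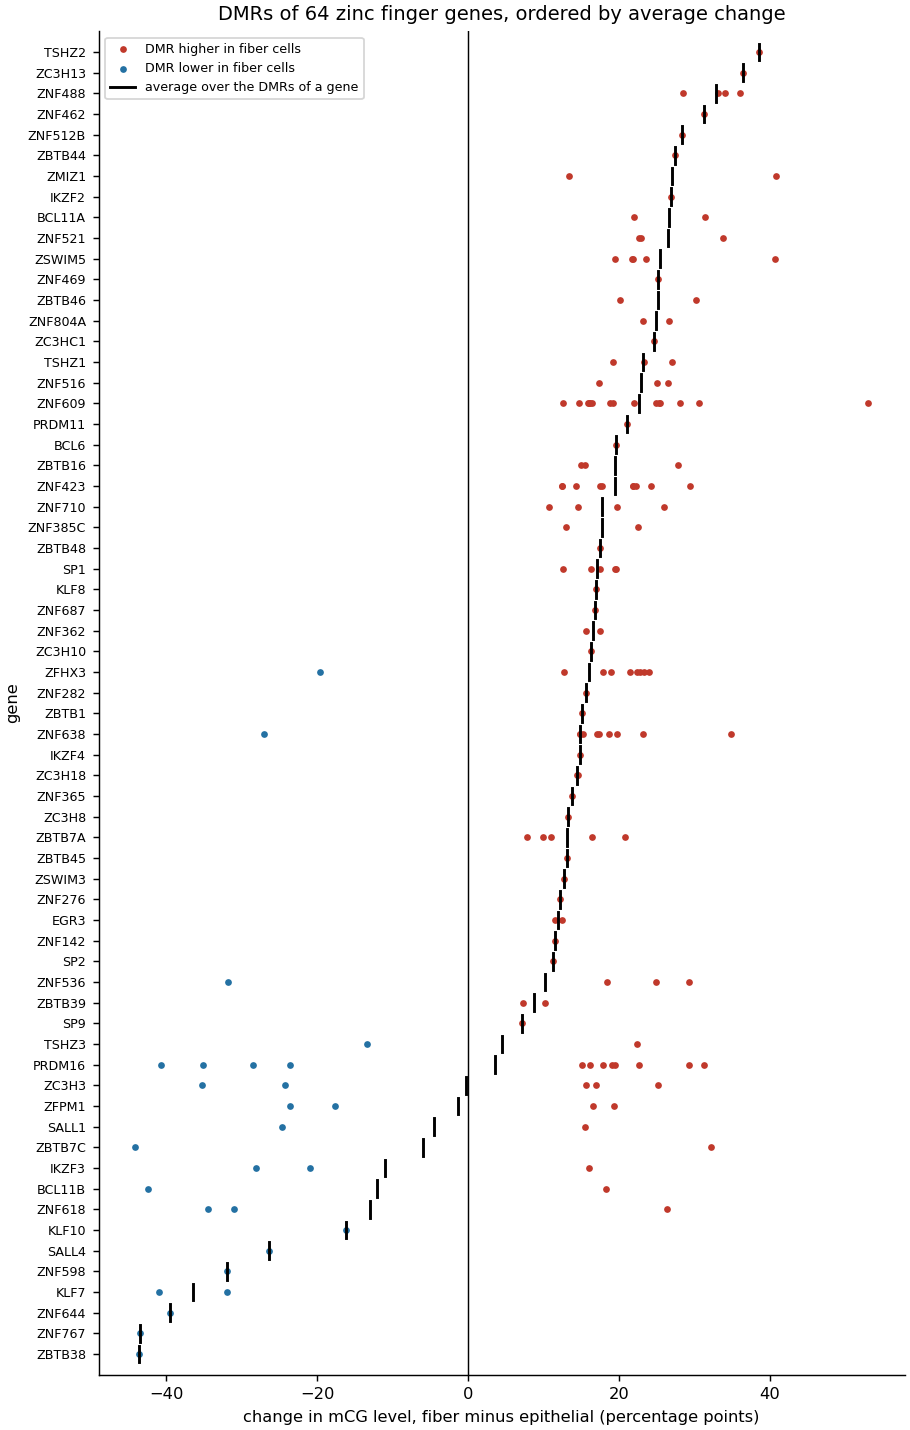
Change in mCG level, fiber minus epithelial (horizontal axis, percentage points), for each DMR of the 64 genes, ordered by the average over the DMRs of a gene (black bars); red points are gains and blue points losses. 50 genes average above 0 and 14 below, and 12 genes hold points on both sides.

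Several genes therefore had regions of both directions. Of 33 genes with at least 2 DMRs, 12 had both gains and losses (36.4%, Wilson interval 22.2% to 53.4%), against 22.5% of all genes with at least 2 and 23.3% of protein-coding ones. Of 13 genes with at least 4 DMRs, 6 had both (46.2%, Wilson interval 23.2% to 70.9%), against 35.1% of all such genes. Both of these intervals hold the background. In these 12 genes 58 DMRs were listed, of which 19 were losses. All 19 lay in introns alone, but so did most gains of the same genes. Over all 27 losses 22 lay in introns alone (81.5%, Wilson interval 63.3% to 91.8%), against 67.1% of 907 losses tied to any gene and 62.7% of the 169 regions whatever their direction. The other 8 losses belonged to 7 genes with losses only (10.9%, Wilson interval 5.40% to 20.9%, against 12.1% of all genes), and 5 of these 8 touched an exon or a UTR. In 105 pairs of successive DMRs of the same gene 82 had the same direction (78.1%), against 86.8% of 3664 pairs over all genes. Median gaps were 3.78 kb and 4.18 kb. No interval was computed for this lower share, and pairs of a gene share regions. PRDM16, with 12 DMRs, supplied several of the changes of direction.

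Directions by annotation were near the background. Of the 106 regions that lay in introns alone, 84 were gains (79.2%, Wilson interval 70.6% to 85.9%), against 85.7% of such DMRs over all genes. Of the 52 regions that overlapped an exon, 48 were gains (92.3%, Wilson interval 81.8% to 97.0%), against 90.5%. CpG islands or their flanks were overlapped by 39 regions (23.1%, Wilson interval 17.37% to 29.98%), against 20.3% of all DMRs tied to a gene. Gains were 35 of the 39, against 89.6% of such DMRs over all genes. The 4 losses there belonged to SALL1, SALL4, TSHZ3 and ZFPM1.

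By region, promoters were overlapped less often than in the background, and all promoter regions were higher in fiber cells. A promoter, as the table annotates it upstream of a transcription start site, was overlapped by 10 of 169 regions (5.92%, Wilson interval 3.25% to 10.5%), against 13.2% of 6661 pairs of a protein-coding gene and a DMR. By genes, 9 of 64 had a promoter DMR (14.1%, Wilson interval 7.58% to 24.6%), against 23.6% of 3263 protein-coding genes. That background lies within the interval. All 10 were gains (Wilson interval 72.2% to 100%), and the 86.6% of gains over all promoter DMRs lies within that interval. They belonged to EGR3, SALL1, ZBTB46, ZNF362, ZNF385C, ZNF423, ZNF609, ZNF710 and ZSWIM5. Epithelial levels of the 10 lay between 6.44% and 46.9% and fiber levels between 21.6% and 64.9%. A CpG island or its flank was overlapped by 7 of them, and the 3 others were the 2 regions shared by ZNF609 and TRIP4 and the promoter of ZNF385C, with 11.8% and 24.8%.

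The genes also had more regions each than usual. The mean was 2.64 DMRs per gene, against 2.04 over protein-coding genes with a DMR. At least 2 DMRs were listed for 51.6% of the 64 genes (Wilson interval 39.6% to 63.4%), against 38.3%, and at least 4 for 20.3% (Wilson interval 12.3% to 31.7%), against 11.9%. Those 13 genes with at least 4 held 92 of the 169 regions. Gene length was not analysed here, and its part in this number was not tested.

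Chromosome 11 stood out in the positions. It held 9 of the 64 genes (14.1%, Wilson interval 7.58% to 24.6%) against 2.67% of protein-coding genes with a DMR. It also held 35 of the 169 regions, against 3.12% of all DMRs, and 10 of the 35 belonged to ZNF423 and 9 to ZFHX3. The chromosome was picked after the counts of all 34 were seen, which the interval does not cover. Genes of these names without a DMR were not counted by chromosome, so the part of gene location in this excess was not tested. The genes were SALL1, TSHZ3, ZC3H18, ZFHX3, ZFPM1, ZNF276, ZNF423, ZNF469 and ZNF536, and 29 of their 35 regions were gains, against 84.9% of all DMRs of that chromosome. They belong to different families, and 3 of them were direct neighbours among the DMRs. ZNF469, ZFPM1 and ZC3H18 held 7 regions within 63.1 kb with no other DMR between them. ZNF469 (ENSGALG00000047024), known from a human disorder of corneal thickness, rose from 42.4% to 67.7% in a region annotated to an exon and the transcription end. The 4 alternating regions of ZFPM1 followed after 12.4 kb, and 21.0 kb further on ZC3H18 had gains from 72.5% to 86.9% and from 9.53% to 24.1%.

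A second pair of neighbours, on chromosome 2, changed in opposite directions. The loss of ZNF767, -43.6 percentage points, lay 13.8 kb before the gain of ZNF282 (ENSGALG00000039048), with no other DMR between. The ZNF282 region, over 5′ UTR, exon and intron from 587279 to 587629, had 76 listed CG sites and went from 56.1% to 71.7%. On chromosome 20 ZNF512B and ZBTB46 lay 84.1 kb apart and both gained, while TSHZ2 and SALL4 lay 421 kb apart, with changes of 38.6 and -26.4 percentage points. On chromosome 33 the regions of ZC3H10 and IKZF4 lay 34.2 kb apart, and all 9 regions of the 4 genes there, SP1, IKZF4, ZBTB39 and ZC3H10, were gains, as were 98.4% of all DMRs of that chromosome.

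**Figure D4:**
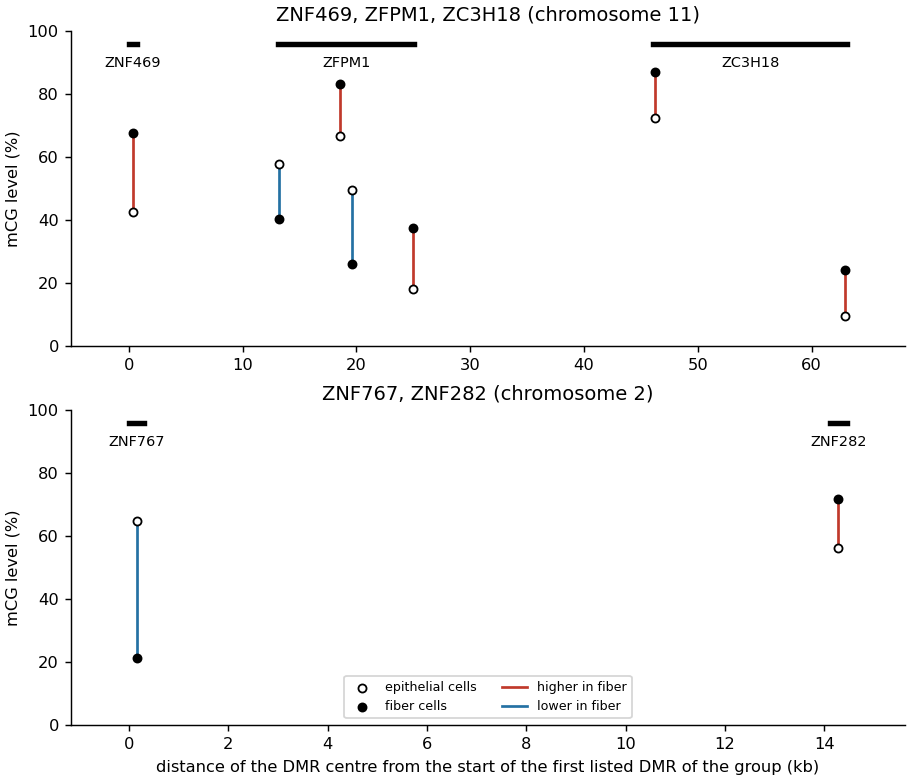
mCG level (vertical axis, %) of epithelial cells (open circles) and fiber cells (filled circles) at the DMRs of neighbouring zinc finger genes, against the distance in kb from the start of the first DMR of each group; black bars span the DMRs of a gene, red lines mark gains and blue lines losses. Upper panel: 7 regions of ZNF469, ZFPM1 and ZC3H18 within 63.1 kb. Lower panel: the loss of ZNF767 and the gain of ZNF282, 13.8 kb apart.

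Among listed gains, the size went with how sparse the CG sites were. Over the 142 gains, Spearman's rho between change and listed CG sites per 100 bp was -0.66 and Pearson's r was -0.60, and over all 6602 gains they were -0.71 and -0.66. These describe regions, which share genes and neighbouring sites and are not independent. Only regions that passed the authors' calling are listed, and the smallest mean test statistic per CG site among the 142 gains was 4.08. The approximate error for one site was 1.75 percentage points in the SP9 region and 4.58 in the sparsest region of ZNF488. Small gains with a large error are therefore missing from the list, and how far this shapes the relation was not tested. The 72 gains at or above the median density of 11.5 sites per 100 bp had a median change of 16.4 percentage points, and the 70 sparser ones had 23.3. All listed gains split at the same density had 16.6 and 25.3, so the relation is that of the whole table. The sparsest regions of ZNF488 and the dense one of SP9 lay at its ends.

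**Figure D5:**
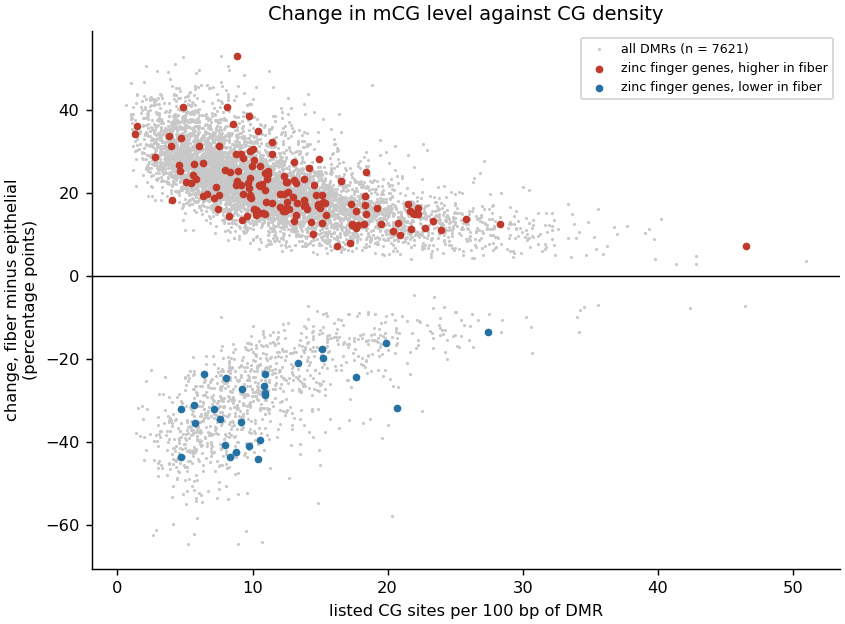
Change in mCG level, fiber minus epithelial (vertical axis, percentage points), against listed CG sites per 100 bp of the DMR (horizontal axis) for all 7621 DMRs (grey) and for gains (red) and losses (blue) of zinc finger genes. The median change of the 142 gains falls from 23.3 below the median density to 16.4 at or above it. Regions that did not pass the authors' calling are absent.

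Levels near 0 in epithelial cells were found in some of the genes. An epithelial level under 10% was listed for 12 of 169 regions (7.10%, Wilson interval 4.11% to 12.0%), against 11.6% of all DMRs. These regions ended between 12.5% and 40.9% in fiber cells. So low a start leaves little room for a loss, and gains made up 99.8% of all such DMRs. They belonged to EGR3, SALL1, ZBTB1, ZBTB7A, ZC3H18, ZFHX3, ZNF423, ZNF488 and ZNF609, with 3 in ZFHX3 and 2 in ZNF609.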

How the data were processed

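The authors treated lens DNA of 6 samples with bisulfite, sequenced it, called bases with CASAVA, trimmed with Trimmomatic, aligned to galGal6 with Bismark and called DMRs with DSS, which was run with smoothing over neighbouring sites and weighs read depth and replicate variance, so that levels of near sites are not independent. Versions are not given in the sources used here. The calling used a p-value threshold and, according to the paper, no minimum difference. Regions that did not pass it are not listed, so differences that were small for their error are missing. According to the paper, only reads of chromosomes 1 to 30, Z and W were kept, yet DMRs on chromosomes 31, 32 and 33 are listed. They were used as listed, and among the genes here this concerns ZBTB45, SP1, IKZF4, ZBTB39 and ZC3H10. For each cell type the deposited mean mCG level is a fraction. The authors also gave the count of CG sites (not reads) of each DMR and an area statistic, a score that sums the test statistics over sites. Of 13180 lines, 551 were exact repeats, and lines were joined to 7621 DMRs. Their column of differences was used only to check the recomputed change.

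Levels were turned into percent, and the change is fiber minus epithelial level. Gene averages are unweighted over distinct DMRs, with positions on galGal6. The rule for individually described genes took the 8 highest and 8 lowest averages, genes with at least 4 DMRs or both directions, promoter losses, and the 8 promoter gains with the largest area statistic, 36 genes in all. Where such a gene has many regions, levels are printed for some of them and ranges for the rest. The remaining 28 are given by family with averages. Levels, single changes or densities of KLF8, SP2, SP9, BCL6, BCL11A, PRDM11, IKZF4, TSHZ1, ZC3H18, ZSWIM3, ZNF282, ZNF385C and ZNF469 are also printed and were chosen after their values were seen. The genes and lists were chosen with earlier results of these data known. No tests were run. The joins were checked on simulated tables. Python 3.11.15, pandas 2.3.3, NumPy 2.4.6, SciPy 1.17.1 and matplotlib 3.10.9 were used. Gene names were compared with a RefSeq table of another assembly, from which no coordinate was taken. No sequence is printed, as no genome of the build was used here.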

Additional observations from a re-analysis of the deposited data

How the results depend on the processing

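Only pooled levels were analysed, so replicates could not be left out. No paired analysis was possible because no column carries a replicate. Read depth is unknown, which limits what small changes can show. With changes of at least 20 percentage points, the share of gains fell to 73.3% (Wilson interval 63.1% to 81.5%). Over all DMRs it fell less, from 86.6% to 83.1%, which lies above that interval. The cut kept 63 of the 142 gains and a larger part of the losses, whose median size was larger (-31.1 against 19.3 percentage points). The median change rose to 23.3 percentage points because small changes are left out. The share of genes with a higher average was then 66.7%. The other alternatives (area statistic at or above the median, no shared regions, 1 region per 10 kb, no ZC3H, ZMIZ and ZSWIM genes, CG weighting for genes and, added after seeing the data, no PRDM16 and ZNF609) left the share of gains, the share of genes and the median change within their limits. Restriction to promoters and gene bodies removed no region and tests nothing. Averages can change sign only in the 12 genes with both directions. In 46 comparisons of these genes 5 changed sign, 25 more moved by over the approximate error for one site, and 16 did neither. The 5 were PRDM16 at -0.619 with the area statistic and -6.39 with the minimum change, ZC3H3 at 21.1 with the area statistic and 2.02 with CG weighting, and TSHZ3 at -0.219 with CG weighting. Among those that moved, BCL11B went from -12.1 to -42.4, ZFPM1 from -1.32 to -23.6 and SALL1 from -4.55 to -24.6 with the minimum change. Each of these values with the minimum change rests on 1 remaining region. Averages of genes with both directions therefore depend on the setting.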

Other observations

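A further list of 48 zinc finger genes outside the name rule, among them GATA, SNAI, ZEB and GLIS genes, had 13 genes with a DMR. Of all protein-coding symbols in a RefSeq table of the chicken 19.1% had one. No interval was computed for the 13 of 48. No SNAI or ZEB gene was among the 13. CASZ1 and the GLI genes, also zinc finger genes, are in neither the name rule nor this list and were not described here. Of the 36 DMRs of the 13 genes, 32 were gains (88.9%, 95% Wilson interval 74.7% to 95.6%), against 86.6% over all DMRs. Their median change was 19.0 percentage points. Of the 13 genes, 10 were higher on average in fiber cells (76.9%, Wilson interval 49.7% to 91.8%), against 84.8% of all genes. RREB1, a RAS-responsive factor, had 11 gains of 16.3 to 33.7 percentage points, and VEZF1, a factor of blood vessel development, had 6 gains of 8.72 to 20.7. Lower averages were listed for TRPS1 (-17.9 percentage points), GATA5 (-16.1) and OSR2 (-8.55), from 1 region each. MECOM, itself a relative of PRDM16, had 3 gains and 1 loss.

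Of 227 protein-coding gene symbols in a RefSeq table of the chicken that carry the family names, 60 had a DMR under that symbol (26.4%, Wilson interval 21.1% to 32.5%), against 2738 of 14357 protein-coding symbols (19.1%). The table describes another assembly, and genes listed under other names are missed. All 3 TSHZ names and both BCL11 names had a DMR, as did 3 of 5 IKZF names. No DMR was listed for any of 5 ZIC names, and 10 of 13 KLF names, KLF4 among them, had none. A gene without a listed DMR may still differ in regions that did not pass the authors' calling.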
